A study of Mus musculus with 6 samples.

Results

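Laminins and integrins are the chains of the basement membrane and the receptors that hold cells to it. Laminins are secreted heterotrimers of an alpha, a beta and a gamma chain, and in the sheath around a muscle fibre they bind dystroglycan and integrins. Integrins are heterodimers of an alpha and a beta subunit that tie the matrix outside the cell to the actin cytoskeleton through talin and other adaptors. In adult muscle the fibre is known for laminin chains alpha2, beta1, beta2 and gamma1 and for integrin alpha7 paired with beta1, and loss of the alpha2 chain or of alpha7 causes muscular dystrophy.

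The genes were chosen by name, as every gene with a symbol of the laminin chain or integrin subunit pattern that the platform annotation pairs with a probe set of its own. They numbered 35 of the 18194 genes measured, namely 10 laminin chains, 16 integrin alpha subunits and 9 integrin beta subunits. Names of integrin-binding proteins and of the integrin-like gene Itgbl1 were left out. Where a gene had several probe sets, the brightest over all 6 arrays stood for it.

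The mice were C57/Bl6 animals aged 2 months, and their quadriceps gave 3 samples labelled Pofut1 knockout and 3 labelled wild-type control. Both groups carried a Cre recombinase transgene under the skeletal alpha-actin promoter, which is active in skeletal muscle fibres. The knockout group also had floxed Pofut1 alleles and the control group wild-type Pofut1, the gene of an O-fucosyltransferase that modifies EGF-like repeats, best known on Notch receptors. RNA of whole muscle was measured, so fewer cells of a type and less RNA per cell cannot be told apart. Nothing in the labels ties each sample to an animal of its own, and the p-values cover the spread of these samples, part of which may be technical.

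Each sample had 1 Affymetrix array, whose values are probe set intensities on a linear scale. The array labelled control replicate 3 stood apart, with correlations of 0.940 to 0.945 with the others. The 3' over 5' intensity ratio of Gapdh, which rises when RNA or its cDNA is short, was 10.5 in that array, 3.70 in knockout replicate 2 and 1.735 to 1.967 in the remaining 4. The same ratio of Actb was 5.85, 4.34 and 1.667 to 1.831 in that order, so by Actb the first 2 were closer to each other. RNA input was 25 ng for every sample. Of the 3 probe sets of Pofut1 the brightest read 220.1, 231.1 and 194.3 in the knockout arrays. In the arrays labelled control it read 301.4, 379.8 and 90.6, so the last ran against its label in this probe set. Its log2 fold change was -0.02 over all arrays and -0.66 without that array, and every direction given here rests in part on that array. The mean over all 3 probe sets had -0.12 over all arrays. It is not known here if the brightest probe set falls within the floxed exon or exons, and if it does not, it may not report the deletion. All 12 skeletal muscle fibre markers were above background and 6 of 7 epithelial markers were at background.

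Signal was judged against genes of other tissues. The 95th percentile of that list was an intensity of 232.7, set by Dmp1 (up to 1795) and Sycp3 (up to 292.3), and without those 2 genes it was 65.85. In at least 1 group 12 of the 35 members had a mean above the higher level, 11 lay between both levels and 12 were at background. The members at background were Lama1, Lama3, Lamb3, Lamc3, Itga10, Itga2, Itga2b, Itgam, Itgax, Itgb2l, Itgb4 and Itgb8. They include chains and subunits known from epithelia, platelets and leukocytes. Their intensities say little about a difference, and their log2 fold changes lay between -0.07 (Lamc3) and 0.27 (Lama3).

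The stretches around the transcription start, 250 bases before to 50 after, are shown for 3 members. Itgav was chosen because its groups did not overlap, Itgb5 because its product pairs with that of Itgav, and Lama2 because it encodes the laminin alpha chain of the fibre. The sequences are from RefSeq on GRCm38.p6, at chr2:83724147-83724446 on the plus strand for Itgav, chr16:33829415-33829714 on the plus strand for Itgb5 and chr10:27616893-27617192 on the minus strand for Lama2. Capitals mark 4 motifs on either strand, which do not overlap each other here: the GC box GGGCGG, the TATA box TATAAA, the core of the site of the Notch effector RBPJ, TGGGAA, and an E-box of the MyoD type, CAGCTG.
Itgav: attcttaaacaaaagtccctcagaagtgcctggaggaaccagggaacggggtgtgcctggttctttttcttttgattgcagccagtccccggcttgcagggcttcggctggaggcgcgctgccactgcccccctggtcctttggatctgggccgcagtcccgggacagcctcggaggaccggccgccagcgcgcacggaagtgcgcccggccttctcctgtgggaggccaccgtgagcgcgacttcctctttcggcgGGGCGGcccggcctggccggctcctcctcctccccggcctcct
Itgb5: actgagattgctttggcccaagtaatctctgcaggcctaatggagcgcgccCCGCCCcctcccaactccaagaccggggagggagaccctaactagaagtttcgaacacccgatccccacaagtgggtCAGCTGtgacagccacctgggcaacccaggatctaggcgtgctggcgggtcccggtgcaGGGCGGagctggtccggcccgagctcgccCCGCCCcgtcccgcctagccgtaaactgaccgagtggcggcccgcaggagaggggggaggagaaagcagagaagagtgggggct
Lama2: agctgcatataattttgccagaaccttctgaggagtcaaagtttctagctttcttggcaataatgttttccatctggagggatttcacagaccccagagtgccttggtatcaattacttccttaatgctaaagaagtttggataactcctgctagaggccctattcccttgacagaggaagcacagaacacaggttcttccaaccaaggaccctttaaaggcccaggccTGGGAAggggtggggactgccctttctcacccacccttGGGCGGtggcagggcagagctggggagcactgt

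The GC box occurred 1 time in the window of Itgav, 3 times in that of Itgb5 and 1 time in that of Lama2. The RBPJ core occurred 1 time in the Lama2 window, the E-box 1 time in the Itgb5 window and the TATA box in none of these 3. The table held windows for 23 of the 35 members, 26 in all, some genes having more than 1 start. Of these 26, 12 held GGGCGG, 5 TGGGAA, 9 CAGCTG and 0 TATAAA. Of all 32851 windows of the same length 35.7% held GGGCGG, 25.6% TGGGAA, 16.3% CAGCTG and 13.6% TATAAA. A match describes the letters and was not tested as a site.

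No laminin or integrin gene passed the test between knockout and control muscle. In limma, with p-values adjusted over all genes, 0 of 35 members and 0 of 18194 genes (0.00%) passed a threshold of 0.05, and the lowest adjusted p was 0.971. At an unadjusted p under 0.05 there were 2 members, Itga6 and Itga8, both higher in the knockout, or 5.71%, against 469 of all genes (2.58%), of which 182 were higher and 287 lower. Itga6 kept such a p in 14 of 17 alternatives and Itga8 in 8 of 16, losing it among others without the array labelled control replicate 3. Itga9, lower in the knockout, had one in 3 of 16. The groups did not overlap for 2 members, Itga6 and Itgav, also both higher, and for 0 lower ones. That is 5.71% of the members, against 9.01% of all genes without overlap, 3.33% higher and 5.68% lower. Of the 35 members 22 had a log2 fold change above 0 and 13 below, with a median of 0.03, where 46.3% of all genes were above 0 and their median was -0.01. Among the 12 members above the higher background level 9 had a log2 fold change above 0, where 55.2% of the 6145 genes at that level did. Without the array labelled control replicate 3, Lama2 (-0.001), Lamb1 (-0.158), Lamc1 (-0.096) and Itga5 (-0.090) of these 9 fell below 0. The rest of the 9 stayed above 0. The 2 members without overlap are among these 12, or 16.7%. Of the 6145 genes 13.0% had no overlap in either direction, and 5.19% were higher without overlap.

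**Figure D1:**
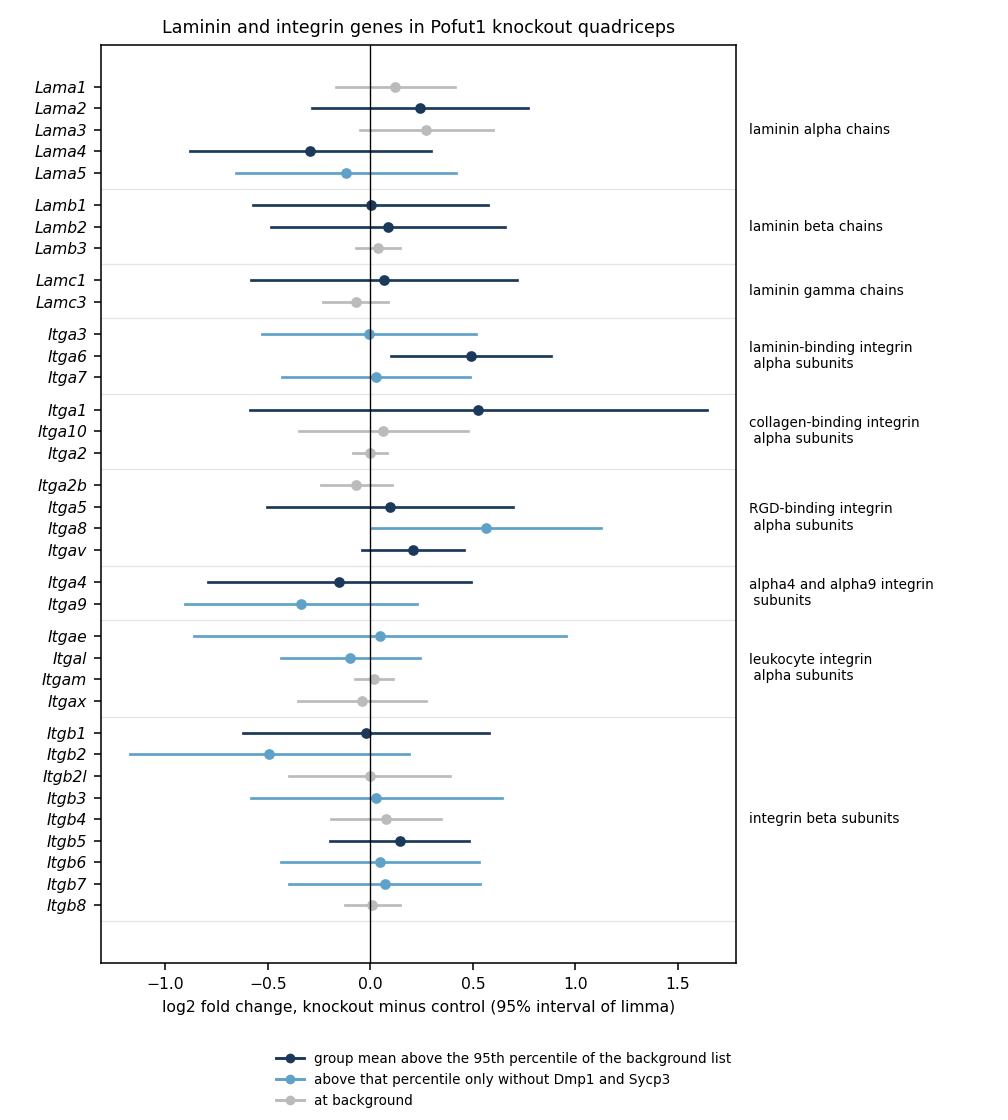
The log2 fold change of each of the 35 members, knockout minus control, with 95% intervals from limma on the horizontal axis, grouped by role and coloured by level against background. Only the intervals of Itga6 and Itga8 lie above 0, and the widest of the bright members is that of Itga1.

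No laminin alpha chain separated the groups. Lama2, which encodes the alpha2 chain, read 1101, 958.3 and 1053 in the knockout and 1015, 1057 and 626.6 in the arrays labelled control. The lowest value was that of the array labelled control replicate 3, and the others lay close together. Its log2 fold change was 0.24 ± 0.22 (SE, 3 against 3 arrays; 95% interval -0.29 to 0.77), and without that array it was -0.00. Lama4, the alpha4 chain of vessels and nerves, read 352.9, 205.4 and 297.5 in the knockout and 343.3, 298.4 and 386.5 in the arrays labelled control. Its groups overlapped, with knockout replicate 2 lowest, and the log2 fold change was -0.29 ± 0.25 (SE). Lama5, the alpha5 chain of vessel and epithelial basement membranes and between both background levels, had -0.12 ± 0.23 (SE).

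Beta and gamma chains differed more between arrays than between genotypes. Lamb1, the beta1 chain, read 662.5, 410.7 and 608.4 in the knockout and 609.9, 615.2 and 440.4 in the arrays labelled control. Knockout replicate 2 and the array labelled control replicate 3 were the low ones, and the log2 fold change was 0.00 ± 0.24 (SE). Lamc1, the gamma1 chain shared by most laminins, read 745.9, 421.8 and 709.3 in the knockout and 598.6, 702.5 and 462.0 in the arrays labelled control. The same 2 arrays were low here, and the log2 fold change was 0.07 ± 0.27 (SE; 95% interval -0.58 to 0.71). Lamb2, the beta2 chain that is concentrated at the neuromuscular junction, read 438.0, 383.5 and 410.6 in the knockout and 293.7, 529.0 and 370.0 in the arrays labelled control. The knockout values lay inside the control range, with a log2 fold change of 0.09 ± 0.24 (SE).

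Of the laminin-binding integrin subunits, Itga6 was higher in every knockout array and Itga7 was not. Itga6, which encodes alpha6, a laminin receptor known from endothelium, nerve and epithelium, read 889.0, 723.7 and 769.4 in the knockout and 494.8, 638.2 and 564.3 in the arrays labelled control. The lowest knockout value lay above the highest control value. The log2 fold change was 0.49 ± 0.17 (SE; 95% interval 0.10 to 0.88), or 1.41-fold, with a limma adjusted p of 0.971. The exact two-sided permutation p was 0.1, the smallest that 3 against 3 arrays allow and the value of any gene without overlap. Without the array labelled control replicate 3 the log2 fold change was again 0.49 (adjusted p = 0.802 in limma).

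The second probe set of Itga6 was dimmer and did not separate the groups. It read 182.2, 119.8 and 192.8 in the knockout and 115.4, 160.3 and 64.6 in the arrays labelled control, with a log2 fold change of 0.61 over all arrays and 0.25 without the array labelled control replicate 3. Itga7, the alpha7 subunit of the fibre's main laminin-binding integrin, read 241.6, 209.8 and 188.1 in the knockout and 206.6, 203.7 and 213.9 in the arrays labelled control. These values overlapped closely and both group means lay below the higher background level, with a log2 fold change of 0.03 ± 0.19 (SE; 95% interval -0.43 to 0.48). Itga3, the alpha3 laminin receptor, lay between both background levels, at -0.01 ± 0.22 (SE). Its second probe set, almost as bright, had -0.64, or -0.36 without the array labelled control replicate 3, with overlap between the groups.

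Itgb1, the beta1 subunit that pairs with alpha7, alpha6 and most other alpha subunits, had nearly equal group means. Its brightest probe set read 981.4, 507.4 and 848.2 in the knockout and 800.7, 761.9 and 724.7 in the arrays labelled control. Knockout replicate 2 was the low value, and the knockout arrays lay on both sides of the control range. In log2 units the knockout stood at -0.02 ± 0.25 (SE; 95% interval -0.62 to 0.58) relative to the control. Without knockout replicate 2 this was 0.26, with a limma adjusted p of 0.977.

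Receptors for RGD-containing ligands held the other member without overlap. Itgav, the alphaV subunit that binds vitronectin, fibronectin and latent TGF-beta, read 2265, 2278 and 2081 in the knockout and 1920, 1885 and 1923 in the arrays labelled control. Every knockout value was above every control value, by a small margin and with little spread within the groups. The log2 fold change was 0.21 ± 0.10 (SE; 95% interval -0.04 to 0.46), or 1.16-fold, with a limma adjusted p of 0.971 and an exact permutation p of 0.1. That permutation p follows from the lack of overlap, for which the gene was named, and adds nothing to it. The other 4 probe sets of Itgav were dim, and only 1 of them had a mean above the lower background level, where it read 63.1 to 69.6 in the knockout and 65.2, 66.1 and 142.2 in the arrays labelled control. The mean over all 5 probe sets had a log2 fold change of -0.01.

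Itgb5, the beta5 partner of alphaV, had slightly higher values that overlapped. It read 550.4, 615.0 and 593.1 in the knockout and 542.6, 499.3 and 550.4 in the arrays labelled control. The lowest knockout value equalled the highest control value to the digits given, and the log2 fold change was 0.14 ± 0.14 (SE; 95% interval -0.20 to 0.48). All 4 of its probe sets had log2 fold changes above 0, from 0.12 to 0.39, and 0.12 to 0.17 without the array labelled control replicate 3. The brightest and the next brightest are of a design whose probes can also match other transcripts. Itgb3, the other common partner of alphaV and known from platelets and vessels, lay between both background levels, at 0.03 ± 0.26 (SE). Itgb6 and Itgb7, at the same level, had 0.05 and 0.07.

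Itga8 and Itga5 were the other RGD-binding subunits with signal. Itga8, the alpha8 subunit of smooth muscle and fibroblast-like cells, read 97.3, 92.7 and 66.2 in the knockout and 63.8, 68.1 and 42.6 in the arrays labelled control. The lowest knockout value lay inside the control range, and all values were below the higher background level. Knockout minus control was 0.56 ± 0.24 (SE) in log2, with a limma adjusted p of 0.971 and an exact permutation p of 0.2, and 0.35 without the array labelled control replicate 3. Itga5, the fibronectin receptor subunit alpha5, read 272.4, 276.0 and 227.8 in the knockout and 229.7, 327.6 and 187.0 in the arrays labelled control, with a log2 fold change of 0.09 ± 0.25 (SE).

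Itga1, the collagen receptor subunit alpha1 of vessel and connective tissue cells, had the widest spread of the bright members. It read 619.0, 300.2 and 630.9 in the knockout and 401.5, 542.8 and 179.7 in the arrays labelled control. The lowest value of each group was in one of the 2 arrays with a high Gapdh ratio. Knockout minus control was 0.53 ± 0.47 (SE) in log2 and 0.07 without the array labelled control replicate 3. Its second probe set ran the other way in that array, with 141.0, 125.6 and 136.7 in the knockout and 141.0, 153.4 and 235.6 in the arrays labelled control.

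**Figure D2:**
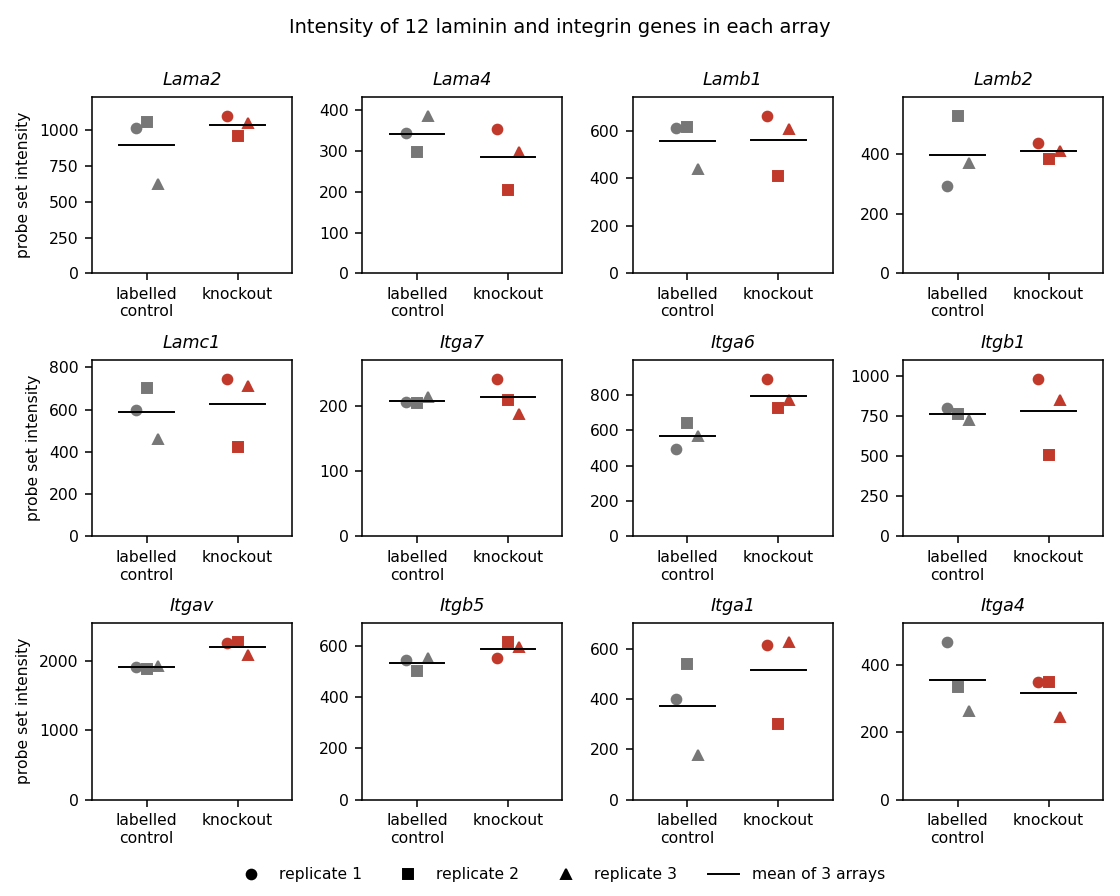
Probe set intensity on the vertical axis, from 0, for 12 members in each array, labelled control in grey and knockout in red, with marker shapes for replicates and a line at each group's mean. The groups separate for Itga6 and Itgav, and the square of knockout replicate 2 is low for Lamb1, Lamc1, Itgb1 and Itga1.

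Subunits of circulating and inflammatory cells, given here together with Itga9, mostly lay below the higher background level. Their log2 fold changes lay on both sides of 0. Itga4, the alpha4 subunit of leukocytes that binds Vcam1 and fibronectin, read 349.5, 349.5 and 245.3 in the knockout and 467.7, 333.5 and 263.3 in the arrays labelled control. The groups overlapped, at -0.15 ± 0.27 (SE). Itga9, which is close to alpha4 in structure, read 82.8, 115.0 and 78.8 in the knockout and 136.8, 107.3 and 103.1 in the arrays labelled control, between both background levels, at -0.34 ± 0.24 (SE). Its second probe set read 67.5, 67.2 and 56.0 against 73.5, 85.6 and 184.3, with every knockout value lower. Itgb2, the beta2 subunit of leukocytes, read 129.6, 105.9 and 77.0 against 165.4, 110.5 and 161.1, with overlap, at -0.49 ± 0.29 (SE). Its alpha partners Itgam and Itgax were at background, and Itgal, at -0.10, lay between both levels. Itgae, the alphaE subunit of mucosal T cells, read 93.8 to 214.2 over all arrays, at 0.05 ± 0.38 (SE).

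Markers of the cell types that carry these subunits are given as mean log2 levels of whole lists. For 13 of 15 leukocyte and macrophage markers measured the mean ran from 7.58 to 8.20 in the knockout and from 7.60 to 8.59 in the arrays labelled control, with 11 of 13 lower and 3 at background. For 12 endothelial markers it ran from 7.874 to 8.069 in the knockout and 7.705 to 7.871 in the arrays labelled control, with 9 higher, 0 at background and 1, Cdh5, with an unadjusted limma p under 0.05. For 11 smooth muscle and pericyte markers it ran from 8.644 to 8.784 and from 8.370 to 8.505, with 7 higher, 1 at background, a median log2 fold change of 0.02 and 1, Lmod1, with an unadjusted limma p under 0.05. The 12 fibre markers ran from 13.105 to 13.205 and from 12.981 to 13.111, with 11 higher. The endothelial ranges met at their ends without overlapping and the smooth muscle ranges were apart, both list means standing higher in the knockout. The platelet ranges, given last, were also apart, but lower in the knockout. In the smooth muscle list the largest log2 fold changes were those of Lmod1 (0.98), Myh11 (0.92) and Notch3 (0.79), while 4 of the 11 markers were lower. Those of Myh11 and Notch3 rested largely on 1 array each. Myh11 read 64.2 in the array labelled control replicate 3 and 195.0 and 193.5 in the other control arrays. Notch3 read 591.1 in knockout replicate 2 and 259.0 and 200.6 in the other knockout arrays. The part of these lists in the values of Itga6 and Itgav was not tested. For 7 of 8 fibroblast markers the means were 10.5 to 11.0 and 10.6 to 10.9, for 5 of 8 Schwann cell markers 7.55 to 7.83 and 7.21 to 7.90, and for 5 of 7 platelet markers, 4 of them at background, 6.23 to 6.33 and 6.35 to 6.66.

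Several members varied together between arrays of 1 group. Of the 12 bright members, 8 had the lowest value of the knockout group in replicate 2, where 44.5% of the 6145 bright genes did. In the array labelled control replicate 3, 7 of the 12 had the lowest value of their group, against 59.5% of all bright genes. Of 23 members above the lower background level, 8 were below the mean of the other arrays of their group in both of these arrays, or 34.8%, against 38.8% of 11093 genes at such levels. The share for the members was thus close to that of all genes. Those 8 were Lama2, Lamb1, Lamb2, Lamc1, Itga1, Itgb1, Itgb3 and Itgb6. The part of the 3' over 5' ratio in these values was not tested.

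**Figure D3:**
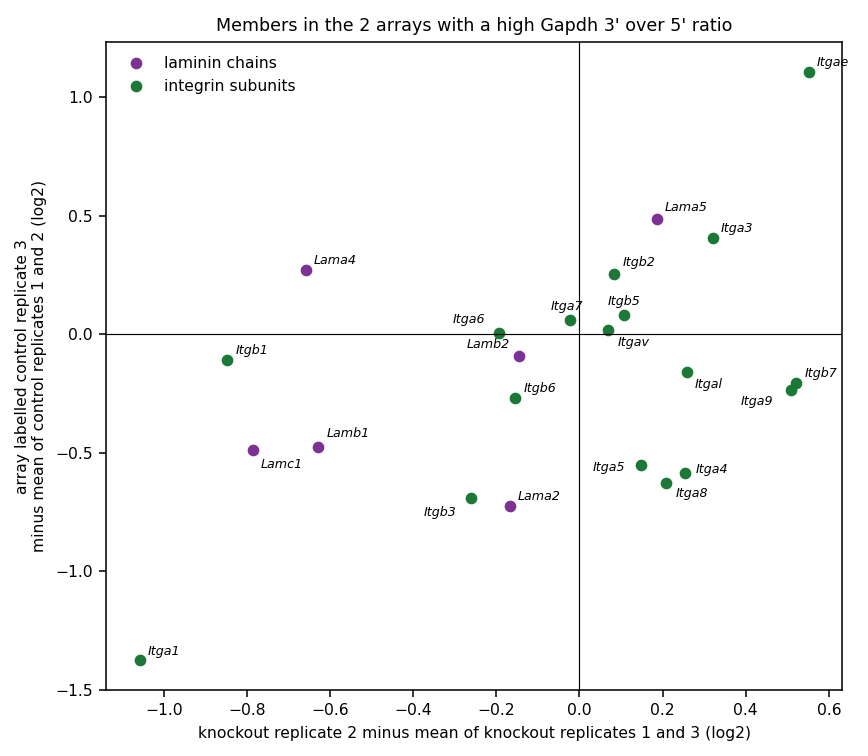
For the 23 members above the lower background level, the log2 value of knockout replicate 2 minus the mean of the other knockout arrays (horizontal) is plotted against the array labelled control replicate 3 minus the mean of the other control arrays (vertical). Itga1 is the lowest in both, at -1.06 and -1.38, and Itgae the highest in both, at 0.55 and 1.11.

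Probe sets of 1 gene did not always move alike in these arrays. Over the 35 members there were 76 probe sets, and 21 members had more than 1. In the array labelled control replicate 3 the brightest probe set of Itgb1 was 0.11 log2 units below the mean of the other control arrays (-0.11), while its next probe sets were at -1.09 and -1.20. The opposite held for Itga1, at -1.38 and 0.68, for Itga9, at -0.23 and 1.22, and for Itgav, at 0.02 and 1.11. For Itgb5 the 2 brighter probe sets were at 0.08 and -0.02 and the 2 dimmer ones at -0.67 and -0.78. For Lamb1 the brighter probe set was at -0.48 and the next at -1.46, and for Itga6 they were at 0.01 and -1.07. Of the 10 members with several probe sets above the lower background level, the next brightest probe set was lower than the brightest in 6 and higher in 4. In knockout replicate 2 the 3 brightest probe sets of Itgb1 were at -0.85, -1.01 and -0.82, all below the other knockout arrays.

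Other genes of the basement membrane and of integrin signalling also had none past the threshold. Of 17 basement membrane partners 10 had higher and 7 lower values, with a median log2 fold change of 0.02. Those with the smallest p among the bright ones were Agrn, the neural and fibre proteoglycan agrin, at 0.33 ± 0.22 (SE), and Smoc2, a calcium-binding matrix protein, at 0.38 ± 0.30, or 0.06 without the array labelled control replicate 3. Of 12 other integrin ligands 6 were higher and 6 lower (median 0.01). Egfl7, a secreted endothelial protein, had every knockout value below the control values, at -0.23 ± 0.20 (SE), or -0.09 without the array labelled control replicate 3, and Fn1, fibronectin, was at 0.29 ± 0.31, or -0.02 without that array.

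Of 5 non-integrin laminin receptors 3 had higher and 2 lower values. Dag1, dystroglycan, the main laminin receptor of the dystrophin complex, was at 0.20 ± 0.21 (SE) and at -0.00 without the array labelled control replicate 3. Rpsa, a ribosomal protein also described as a laminin receptor, read 5057, 4767 and 4760 in the knockout and 6146, 5897 and 6208 in the arrays labelled control. The groups did not overlap, with a log2 fold change of -0.32 ± 0.09 (SE; limma adjusted p = 0.971). The mean over its probe sets had -0.18. Rpsa has many near-identical pseudogene copies, whose transcripts these probes may not tell apart.

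Of 25 cytoplasmic integrin adaptors measured, of 29 listed, 17 had lower and 8 higher values, with a median of -0.12 where that of all genes was -0.01. Tln1, talin 1, which binds beta tails and switches integrins on, read 547.5, 707.0 and 692.7 in the knockout and 887.6, 967.3 and 1061 in the arrays labelled control. Every knockout value was lower, with a log2 fold change of -0.59 ± 0.16 (SE) and a limma adjusted p of 0.971. The mean over all of its probe sets had -0.31. Actn1, the actin cross-linker alpha-actinin 1, also had no overlap, at -0.46 ± 0.21 (SE), and without the array labelled control replicate 3 the value was -0.31. Of the 25, 3 were lower and 1 higher without overlap, 16.0% in all, against 9.01% of all genes. All 4 were among the 17 adaptors above the higher background level, where 13.0% of all genes had no overlap.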

How the data were processed

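The authors deposited 1 table of linear probe set intensities, 45101 probe sets in 6 arrays, made with GCOS and RMA per the submitters' processing notes, without versions. Its scale and centring after RMA are unknown; RMA compresses differences of dim probe sets. The platform annotation gave 34958 probe sets 1 gene symbol and 932 several, and did not list 9211. Of the single-gene probe sets 34754 were found in RefSeq GRCm38.p6 by Entrez identifier, and 0 symbols changed. Each gene took its probe set with the highest mean log2 value.

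The log2 intensities, with no pseudocount, were fitted in limma 3.58.1 under R 4.3.3, with genotype as the single term and a trended empirical Bayes variance. Tests were two-sided, Benjamini-Hochberg adjustment ran over 18194 genes, and an adjusted p under 0.05 was called. Precision is limited by how few arrays there are. The limma model alone was tried on simulated arrays with known changes and noise alike in every array. Probe set choice, background levels and the alternatives were not tested in that way. Of the background list 35 genes were measured.

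Members and lists were chosen with earlier results of these data known. Named by rule were members past the threshold, Lama2, Lamb2, Lamc1, Itga7 and Itgb1, bright members without overlap, the brightest and the lowest-p bright member of each role, and the 2 lowest-p bright genes of each partner list, bright meaning a mean in either group past the background list's 95th percentile. Other genes named, and the lower background level, were chosen after values were seen.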

Additional observations from a re-analysis of the deposited data

How the results depend on the processing

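Under 17 alternatives no gene passed adjustment, and the median log2 fold change of the members stayed above 0, between 0.00 (0.003) and 0.09 (0.091). The limma fit with array weights came near the threshold, with a lowest adjusted p over all genes of 0.058. These 17 alternatives were varied 1 at a time. They covered normalization, weights, variance model, pseudocount, probe sets, filters and left-out arrays. Of these, 3 settings, leaving out both arrays with a high Gapdh ratio, the background without Dmp1 and Sycp3, and probe sets picked by linear means, were added after seeing the data. Genes with an unadjusted p under 0.05, 469 over all arrays, numbered 276 to 1090 when 1 array was left out (1090 without the array labelled control replicate 3), 1362 without both arrays, 1854 with array weights and 786 without trend. Filters on dim genes left 212 and 348, over fewer genes tested.

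Itga6 stayed above 0 in all 17, with an unadjusted p under 0.05 in 14. The exceptions were the replicate block and leaving out knockout replicate 1 or control replicate 1. Its adjusted p ranged from 0.294 (array weights) to 0.9998 (replicate block). Itga1, Itgb5, Itga8, Itga9 and Itgb2 also kept their direction, but with left-out arrays their sizes ran from 0.068 to 0.880, 0.10 to 0.19, 0.284 to 0.737, -0.585 to -0.211 and -0.681 to -0.291. Itgav was at -0.006 with the mean of probe sets only. Deviations from the group mean correlated at 0.19, -0.15 and -0.11 between same-numbered arrays. With so few arrays per group, some of them outlying, these values cannot decide if the numbers pair the samples. With the replicate block 0 genes passed and the median of the members was 0.029.

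Other directions changed, and the cause was not tested. With array weights Lamb1 was at -0.016, Itgb1 0.112, Itga3 0.051, Itga5 -0.029, Lama5 0.002 and Itgb3 -0.136. With quantile normalization Lamb1 was at -0.018, and with array medians Itga3 was at 0.006. With the mean of probe sets Itgb1 was at 0.073, Itgb3 -0.001 and Dag1 -0.021. Leaving out 1 array or both, log2 fold changes ran from -0.001 to 0.376 for Lama2, -0.463 to 0.018 for Lama4, -0.158 to 0.210 for Lamb1, -0.109 to 0.315 for Lamb2 and -0.096 to 0.329 for Lamc1. They ran from -0.067 to 0.114 for Itga7, -0.432 to 0.068 for Itga4, -0.216 to 0.260 for Itgb1, -0.113 to 0.130 for Itga3, -0.139 to 0.315 for Itga5, -0.210 to 0.044 for Lama5, -0.202 to 0.175 for Itgb3 and -0.180 to 0.416 for Itgae. For Dag1 the range was -0.002 to 0.416, for Fn1 -0.095 to 0.494 and for Pofut1 -0.710 to 0.377. For members at background, signal limits what can be seen of a difference.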
